A study of Mus musculus with 30 samples.

Results

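NF-κB is a family of transcription factors that inhibitory proteins hold in the cytoplasm until cytokines such as TNFα and IL-1β activate the IκB kinase complex. The released dimers switch on inflammatory genes together with genes that shut the pathway down again, so that several of its targets are also its brakes. Lung epithelial cells and fibroblasts both carry receptors for these cytokines and respond to them through this pathway. The expression of 10 such feedback regulators and direct targets was examined here, out of 55487 genes counted in each library, and their rows were found by gene symbol. They comprise the inhibitors Nfkbia, which encodes IκBα, and Tnfaip3, which encodes the ubiquitin-editing enzyme A20. They further comprise the nuclear IκB proteins Nfkbiz and Bcl3, the subunits Nfkb2 and Relb of the non-canonical arm, and Birc3, a ubiquitin ligase of the TNF receptor complex that supports cell survival. The targets Tnfaip2, Icam1, a leukocyte adhesion molecule, and Cebpb, a transcription factor of inflammatory responses, complete the group.

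The data come from organoid cultures in which 300000 Epcam+ epithelial cells from the lungs of adult wild type C57BL/6J mice, depleted of CD31+ and CD45+ cells, were mixed with as many CCL206 cells, a line of mouse lung fibroblasts that mitomycin C had kept from dividing. Cultures were kept for 72 hours with vehicle, with EC (an exacerbation cocktail of TNFα, IL-1β, IL-6 and IL-8 by the labels, with KC in place of IL-8 for mouse cells by the study's methods), with IPFc (TNFα, IL-1β and IL-8 joined by TGF-β, TSLP, CCL2 and the interleukins IL-33, IL-13 and IL-4) or with 2 ng/ml TGF-β. Cells were then separated with Epcam microbeads into an Epcam+ fraction (epithelial libraries) and an Epcam- fraction (fibroblast libraries), and each fraction was sequenced as bulk RNA. The 30 libraries form 8 groups of 4 mice each, except that 3 mice were available for epithelial TGF-β and for fibroblast vehicle, since the epithelial TGF-β library of mouse 1 and the fibroblast vehicle library of mouse 2 were not analysed here. The study states that it left out 1 control fibroblast sample for poor RNA quality, without naming its mouse. The fibroblasts are 1 cell line, so in that fraction the mouse number marks only the culture's epithelial partner. The spread between fibroblast libraries is therefore a spread between cultures. Libraries held 5113828 to 20317181 counted reads, and fibroblast EC of mouse 1 was the shallowest. In bulk RNA of this kind, fewer cells of a type and less RNA per cell cannot be told apart.

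Each fraction held marker RNA of the other, in amounts that moved with treatment. How much RNA a library took from the other fraction was estimated as the median ratio of marker genes between a library and its partner from the same culture. Epithelial RNA made up 15.2 to 27.4% of fibroblast vehicle libraries, 38.9 to 60.3% with EC, 10.7 to 31.4% with IPFc and 0.875 to 3.46% with TGF-β. By the same estimate, fibroblast RNA made up 4.38 to 9.61% of epithelial vehicle libraries and 5.42 to 17.4% with EC. It was 4.55 to 16.2% with IPFc and 25.9 to 30.6% with TGF-β. A treatment that changes these markers within a fraction would also move the estimate. In particular, fibroblast markers expressed by epithelial cells with TGF-β would be counted as fibroblast RNA, which was not tested. All 15 epithelial markers had reads in every group. Of the 15 fibroblast markers, Thy1 was at 0 in the fibroblast libraries of all treatments except IPFc, and the other 14 had reads. Values after the partner's share was subtracted from the counts are given beside the results that changed.

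**Figure D1:**
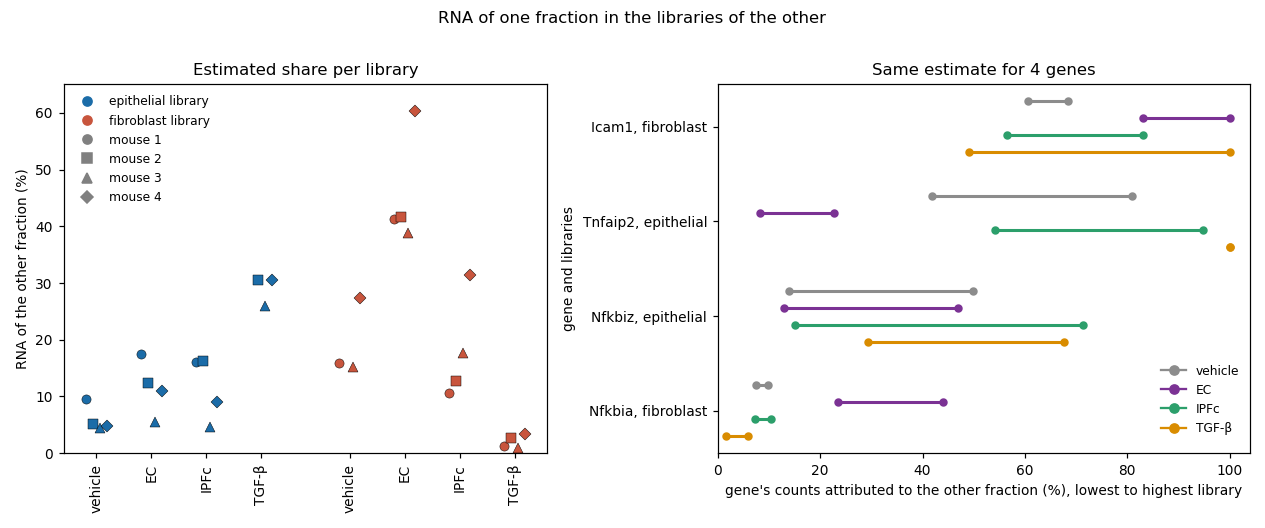
The left panel plots the estimated percent of RNA that came from the other fraction for each library by group, and the right panel plots, for 4 genes, the lowest and highest percent of a gene's counts attributed to the other fraction in each group. Fibroblast EC libraries sit at 38.9 to 60.3% and fibroblast TGF-β libraries at 0.875 to 3.46%.

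A further split of the libraries came from their titles, of which 16 of 30 end in the letter R, without a stated meaning. Libraries of mice 1, 2 and 4 all carried or all lacked the R within a fraction, and only mouse 3 held both kinds in each fraction. In mouse 3 all fibroblast libraries except vehicle carried the R. In its epithelial fraction vehicle and EC carried it, and IPFc and TGF-β did not. With the mouse in the fit, the R term therefore rests on mouse 3 alone, where R and treatment go together. Fits with the R as a covariate thus mainly discount the treatment contrasts of mouse 3. Over both fractions, with mouse and treatment in the fit, 0.147% of 18364 genes were higher and 0.468% were lower in R libraries at an adjusted p under 0.05 (edgeR's quasi-likelihood test with Benjamini-Hochberg adjustment). Of the 10 genes, 2 were higher. Cebpb was higher by 3.17 on the log2 scale (SE 0.68, adjusted p = 0.0346) and Bcl3 by 0.73 (SE 0.17, adjusted p = 0.0458). Values without mouse 3 and with the R as a covariate are given below where they matter.

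Promoter windows from 250 bases before to 50 bases after each annotated start, from RefSeq (build GRCm38.p6), were available for 8 of the 10 genes. The κB consensus was searched on both strands of each window, and 5 of the 8 genes held at least 1 match, against 9.55% of 27025 genes with a window. The consensus was taken as GGG, a purine, any 2 bases, 2 pyrimidines and CC. Full matches lay at Nfkbia, Tnfaip3, Bcl3, Nfkb2 and Tnfaip2, and none was found in the windows of Birc3, Icam1 and Cebpb. Sites that deviate from the consensus in any base were not counted, so these windows may hold such sites. The windows of Tnfaip3 and Tnfaip2 are printed because these genes passed the test under EC and held a match. Those of Nfkbia, the classical inhibitor, and Nfkb2, which had 3 matches in its first window, 2 of them overlapping, against 0.186% of all windows with 3 or more, are added for comparison and were chosen after the values were seen. All are written 5′ to 3′ on the strand of the gene, with bases matching the consensus on either strand in capitals.
Tnfaip3 (chr10:19015361-19015660, minus strand): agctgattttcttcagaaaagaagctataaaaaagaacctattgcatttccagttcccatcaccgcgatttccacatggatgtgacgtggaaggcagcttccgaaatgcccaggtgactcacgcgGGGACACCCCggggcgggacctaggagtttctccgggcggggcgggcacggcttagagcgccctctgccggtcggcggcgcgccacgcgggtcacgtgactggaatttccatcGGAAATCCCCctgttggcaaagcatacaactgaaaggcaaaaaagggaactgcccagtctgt
Tnfaip2 (chr12:111442411-111442710, plus strand): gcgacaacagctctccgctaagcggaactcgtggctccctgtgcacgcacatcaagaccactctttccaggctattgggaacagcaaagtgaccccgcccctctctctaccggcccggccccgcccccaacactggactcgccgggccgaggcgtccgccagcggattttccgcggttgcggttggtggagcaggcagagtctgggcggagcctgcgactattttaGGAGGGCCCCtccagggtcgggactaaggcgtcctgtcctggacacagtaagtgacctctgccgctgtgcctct
Nfkbia (chr12:55492598-55492897, minus strand): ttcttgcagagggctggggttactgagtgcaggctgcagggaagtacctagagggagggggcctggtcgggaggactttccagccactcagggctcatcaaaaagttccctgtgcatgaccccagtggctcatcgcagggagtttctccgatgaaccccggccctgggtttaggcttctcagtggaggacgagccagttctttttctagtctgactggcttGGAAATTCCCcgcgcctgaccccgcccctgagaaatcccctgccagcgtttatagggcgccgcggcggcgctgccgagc
Nfkb2, first start (chr19:46304487-46304786, plus strand): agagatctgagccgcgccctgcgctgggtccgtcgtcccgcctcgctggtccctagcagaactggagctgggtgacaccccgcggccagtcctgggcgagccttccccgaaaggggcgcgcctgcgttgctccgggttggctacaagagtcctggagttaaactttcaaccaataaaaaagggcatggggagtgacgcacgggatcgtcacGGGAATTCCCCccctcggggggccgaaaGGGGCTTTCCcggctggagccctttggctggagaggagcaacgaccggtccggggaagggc
The match of Tnfaip2 began 24 bases before the start and that of Nfkbia 29 bases before it, while Tnfaip3 had matches at 125 and 12 bases before its start. A match is a description of letters and no measurement of binding.

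**Figure D2:**
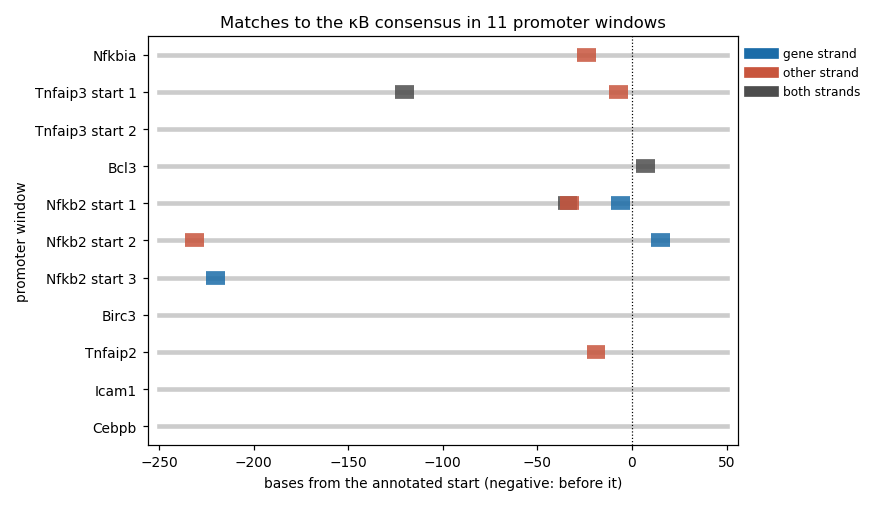
Each grey bar is 1 of 11 promoter windows of 8 genes, the x axis gives bases from the annotated start, and blocks mark matches to the κB consensus on the gene strand, the other strand or both. The 11 matches fall in 7 of the 11 windows, and the second match of Nfkb2 start 2 and the match of start 3 are the same site seen from 2 starts.

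In vehicle cultures, most of the 10 genes were expressed more strongly in the fibroblast fraction. Levels are given as CPM, the count of a gene relative to the library total, scaled with TMM factors over all 30 libraries, and are compared between libraries for 1 gene at a time, since they are not corrected for gene length. Of the 10 genes, 6 were higher and 1 was lower in fibroblast than in epithelial vehicle libraries at an adjusted p under 0.05, where 28.2% of all genes tested were higher and 27.8% lower. Tnfaip2 stood at 44.8, 39.7, 36.7 and 33.9 CPM in epithelial vehicle libraries of mice 1 to 4, and at 284, 316 and 539 CPM in the fibroblast libraries of mice 1, 3 and 4. The groups did not overlap, and the fibroblast level was 3.35 higher on the log2 scale (SE 0.25, adjusted p = 1.3e-11, n = 4 and 3, edgeR). Nfkbiz, a nuclear IκB protein that acts as a co-activator at a subset of targets, was higher by 2.07 (SE 0.22, adjusted p = 4.9e-09), with 25.7 to 62.3 CPM against 127 to 199 CPM. Tnfaip3 was higher by 1.86 (adjusted p = 1.5e-05), Nfkbia by 1.06 (adjusted p = 0.00203), Relb by 0.95 (adjusted p = 5.6e-06) and Nfkb2 by 0.72 (adjusted p = 2.8e-05).

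Icam1 showed the opposite distribution. It ranged from 491 to 597 CPM in epithelial vehicle libraries and stood at 119, 127 and 223 CPM in the fibroblast ones, lower by a log2 fold change of -1.82 (SE 0.25, adjusted p = 6.4e-07, edgeR). From the shares of epithelial RNA, 60.5 to 68.4% of the Icam1 reads of these fibroblast libraries were attributed to epithelial cells, and after subtraction the difference was -3.02 (adjusted p = 0.00982). Fibroblast RNA was likewise attributed 41.8 to 81.0% of the few Tnfaip2 reads of epithelial vehicle libraries, and its difference after subtraction was 4.90. Among the fibroblast vehicle libraries, mouse 4 was the highest for 9 of the 10 genes, for example with 631 CPM of Nfkbia against 146 and 297 CPM in mice 1 and 3. That library also held the most epithelial RNA of the 3 (27.4%) and was the only one of them whose title ends in R. Their part in its levels was not tested.

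**Figure D3:**
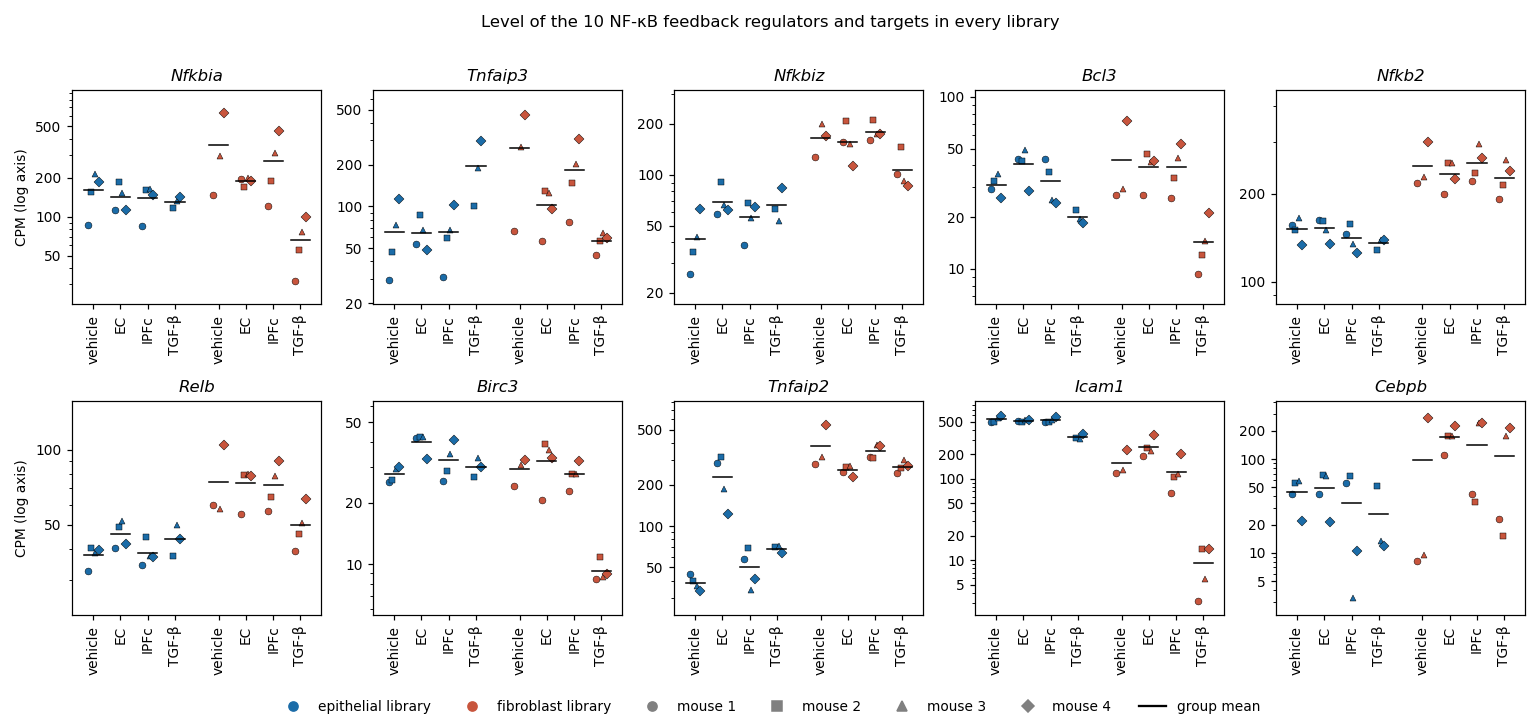
Each panel plots 1 gene, with CPM on a log axis for every library by treatment, epithelial libraries left and fibroblast libraries right, mouse by marker shape, and the group mean as a line. Tnfaip2 in epithelial EC libraries (122 to 317 CPM) lies above the other epithelial groups, and Icam1 in fibroblast TGF-β libraries (3.20 to 13.9 CPM) lies far below every other group.

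EC exposure raised 3 of the 10 genes in the epithelial fraction and lowered none. In this comparison 1.96% of 18024 genes tested were higher and 2.44% lower, and the median log2 fold change was 0.23 over the 10 genes and 0.0031 over all genes. Tnfaip2, a TNF-induced protein linked to membrane nanotubes, was at 287, 317, 186 and 122 CPM in mice 1 to 4, against 33.9 to 44.8 CPM with vehicle. Every EC library was above every vehicle library, with a log2 fold change of 2.49 (SE 0.16, adjusted p = 1.5e-09, edgeR's quasi-likelihood test with the mouse as a block), about 5.62-fold. The level in EC libraries, 228 ± 90.4 CPM (SD, n = 4), reached that of the fibroblast fraction under EC, 255 ± 20.8 CPM (SD, n = 4), and both ranges overlapped. Between 8.27 and 22.6% of the Tnfaip2 reads of the epithelial EC libraries were attributed to fibroblasts, and 25.5 to 47.7% of those of the fibroblast EC libraries to epithelial cells, and after subtraction the epithelial log2 fold change was 3.77 (adjusted p = 7.5e-05).

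Nfkbiz and Birc3 showed smaller increases. Nfkbiz was at 58.4, 90.4, 66.4 and 62.2 CPM with EC in mice 1 to 4, against 25.7, 35.0, 43.0 and 62.3 CPM with vehicle, so it was higher in 3 of 4 mice and level in mouse 4. Its log2 fold change was 0.80 (SE 0.15, adjusted p = 0.00262). Birc3 was at 41.5, 42.2, 42.2 and 32.9 CPM with EC, all above the vehicle range of 25.4 to 30.2 CPM, with a log2 fold change of 0.53 (SE 0.13, adjusted p = 0.0143). Under every alternative the size of the increase was 0.61 to 1.05 for Nfkbiz and 0.47 to 0.65 for Birc3 (log2 fold change), while the calls were lost under some. Without mouse 1 the adjusted p was 0.0527 for Nfkbiz and 0.121 for Birc3, without mouse 2 it was 0.0528 and 0.134, and after subtraction of fibroblast RNA it was 0.0861 and 0.0713. Birc3 was also lost without mouse 3 (adjusted p = 0.0959), and without the replicate block the adjusted p was 0.114 for Nfkbiz and 0.0574 for Birc3.

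The other 7 genes were not called in EC-exposed epithelial cells, with log2 fold changes of -0.12 to 0.40. Among them were Bcl3, higher by 0.40 in all 4 mice (SE 0.14, adjusted p = 0.152), and Relb, higher by 0.28 in all 4 mice (SE 0.11, adjusted p = 0.189). Every EC library of Relb was above every vehicle library, although by little (40.5 to 52.0 CPM against 32.7 to 40.5 CPM). Both classical inhibitors were among the uncalled genes. Nfkbia ranged from 113 to 185 CPM with EC and from 85.9 to 213 CPM with vehicle, and Tnfaip3 from 48.4 to 86.5 CPM and from 29.5 to 113 CPM, so that each EC range lay inside the vehicle range. Icam1 was at 497 to 533 CPM with EC against 491 to 597 CPM with vehicle. The summed level of 15 immune markers, of which Adgre1, Tyrobp and Marco were at 0 in every epithelial EC library, was 449 to 580 CPM with EC and 301 to 337 CPM with vehicle, and its part in these results was not tested.

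In the fibroblast fraction, EC lowered 1 of the 10 genes and raised none, where 4.28% of 18048 genes tested were higher and 2.84% lower. The called gene was Tnfaip3, which stood at 66.3, 269 and 460 CPM with vehicle in mice 1, 3 and 4 and at 56.6, 124 and 96.5 CPM with EC in the same mice, and at 129 CPM in mouse 2. It was lower in all 3 mice with both libraries, by a log2 fold change of -1.16 (SE 0.30, adjusted p = 0.0295), while the group ranges overlapped. The call was lost without mouse 3 (adjusted p = 0.246), without mouse 4 (log2 fold change -0.62, adjusted p = 0.315), with the title's R as a covariate (adjusted p = 0.138), without the mouse as a replicate block (adjusted p = 0.142) and after subtraction of epithelial RNA (-1.05, adjusted p = 0.501). The summed level of the 15 immune markers, all with reads, was 240 to 342 CPM in fibroblast EC and 123 to 161 CPM in fibroblast vehicle libraries, and its part was not tested. Subtraction also moved the median of all genes in this comparison to -0.13.

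A set of 3 other genes came near the threshold in EC-exposed fibroblasts. Tnfaip2 was at 247, 270, 272 and 228 CPM, below all vehicle libraries (284 to 539 CPM), with a log2 fold change of -0.54 (SE 0.17, adjusted p = 0.0623). Icam1 was at 191, 240, 222 and 341 CPM against 119, 127 and 223 CPM, higher by 0.63 in all 3 mice (SE 0.22, adjusted p = 0.104). However, 83.1 to 100% of the Icam1 reads of fibroblast EC libraries were attributed to epithelial cells, and after subtraction the value was -1.31 (adjusted p = 0.853). Cebpb was higher by 2.49 (SE 0.83, adjusted p = 0.0820) and is described with its title dependence further on. With DESeq2 in place of edgeR, these 3 genes and Tnfaip3 were called, with adjusted p of 0.0470 for Tnfaip2, 0.0494 for Icam1, 0.0266 for Cebpb and 0.00592 for Tnfaip3. The remaining 6 genes were not called by either tool.

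The response to EC differed between the fractions for 2 of the 10 genes, tested as an interaction over all 30 libraries. Among 18364 genes, 3.33% had a higher and 1.26% a lower response in fibroblasts than in epithelial cells. Tnfaip2 differed by -3.02 on the log2 scale (SE 0.26, adjusted p = 8.5e-08), raised in epithelial cells and uncalled in fibroblasts, and the difference held under every alternative run, from -4.45 to -2.84. Nfkbiz differed by -1.02 (SE 0.24, adjusted p = 0.0122), and this was lost without mouse 2 (adjusted p = 0.116), without mouse 3 (adjusted p = 0.151), without the replicate block (adjusted p = 0.325) and after subtraction (adjusted p = 0.287), while its size stayed between -1.17 and -0.82 under every alternative. The 2 fractions of a culture are not independent, which the fit does not take into account.

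With IPFc, which also contains TNFα and IL-1β, none of the 10 genes was called in either fraction by edgeR as reported or by DESeq2. In epithelial cells 2.57% of genes were higher and 1.53% lower with IPFc, and the 10 genes ranged from -0.71 to 0.45, of which 2 had an unadjusted p under 0.05. These were Nfkbiz, at 38.4, 67.7, 55.3 and 64.1 CPM and higher than vehicle in 4 of 4 mice by 0.45 (SE 0.15, adjusted p = 0.125), and Tnfaip2, at 57.5, 69.7, 34.3 and 41.2 CPM, by 0.34 (SE 0.16, adjusted p = 0.357). By edgeR, Nfkbiz was called without mouse 4 (0.62, adjusted p = 0.00441), with the 2 groups alone (0.46, adjusted p = 0.00914) and without a filter (0.45, adjusted p = 0.00266). The other alternatives did not call it, and after subtraction it was at 0.20 (adjusted p = 0.991). Tnfaip2 was called only without a filter (0.34, adjusted p = 0.0414). In fibroblasts 0.305% of genes were higher and 0.144% lower, and 0 of the 10 genes had an unadjusted p under 0.05, with log2 fold changes of -0.46 to 1.5. The IPFc responses of the fractions differed for none of the 10 genes, where 0.0436% of genes had a higher and 0.185% a lower response in fibroblasts, and 1 gene, Cebpb, had an unadjusted p under 0.05.

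Compared directly, EC exceeded IPFc for 1 of the 10 genes in each fraction and was below it for none. In epithelial cells, where 1.76% of genes were higher and 2.40% lower with EC than with IPFc, the gene was Tnfaip2, with a log2 difference of 2.15 (SE 0.16, adjusted p = 6.8e-09) and no overlap between the groups. In fibroblasts, where 6.28% of genes were higher and 4.16% lower, it was Icam1, at 67.2, 106, 115 and 201 CPM with IPFc in mice 1 to 4 and higher with EC in 4 of 4 mice by 1.09 (SE 0.20, adjusted p = 0.00250). After subtraction of epithelial RNA the Icam1 difference was 0.060 (adjusted p = 0.994), and without the replicate block it was 1.03 (adjusted p = 0.118).

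TGF-β lowered 7 of the 10 genes in the fibroblast fraction and raised none, where 6.39% of genes were higher and 12.8% lower. The median log2 fold change was -1.09 over the 10 genes and -0.016 over all genes. All 7 genes were lower in every mouse with both libraries, and for 5 of them every TGF-β library was below every vehicle library. Both counts describe genes already called lower in the same libraries and add no separate evidence. They were not made over all genes. The comparisons of EC, IPFc and TGF-β with vehicle share their vehicle libraries, including the high library of mouse 4. In the TGF-β libraries the summed immune markers, of which Cd3e was at 0, were at 27.1 to 41.5 CPM against 123 to 161 CPM with vehicle, and 10 endothelial markers, of which Tie1, Emcn and Cldn5 were at 0, at 3.75 to 7.26 CPM against 12.9 to 13.2 CPM. Their part was not tested.

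The 7 genes included both inhibitors, both nuclear IκB proteins, Relb, Birc3 and Icam1. Icam1 changed most, from 119, 127 and 223 CPM with vehicle to 3.20, 13.9, 5.96 and 13.9 CPM with TGF-β in mice 1 to 4, a log2 fold change of -4.16 (SE 0.25, adjusted p = 3.6e-09). Nfkbia stood at 146, 297 and 631 CPM with vehicle and at 31.7, 55.1, 76.6 and 100 CPM with TGF-β, with a log2 fold change of -2.19 (SE 0.27, adjusted p = 1.2e-05). Tnfaip3 stood at 66.3, 269 and 460 CPM and at 44.4, 56, 63.9 and 59.0 CPM, with a log2 fold change of -1.88 (SE 0.30, adjusted p = 1.9e-04). For these 3 genes the groups did not overlap, and the TGF-β libraries of Tnfaip3 lay in a narrow band while its vehicle libraries were spread widely. Birc3 was at 24.2, 30.8 and 32.7 CPM with vehicle and between 8.43 and 10.8 CPM with TGF-β (log2 fold change -1.66, SE 0.15, adjusted p = 3.1e-07). Bcl3 was at 26.8, 29.2 and 72.8 CPM and between 9.37 and 21.1 CPM (log2 fold change -1.46, SE 0.19, adjusted p = 2.6e-05). Nfkbiz and Relb overlapped between groups and changed less, by log2 fold changes of -0.72 (adjusted p = 0.00265) and -0.47 (adjusted p = 0.0279).

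The fibroblast TGF-β libraries held less epithelial RNA than the vehicle libraries (0.875 to 3.46% against 15.2 to 27.4%). After subtraction of the epithelial share, 6 of the 7 genes were still called. The shares of all genes given for this comparison belong to the fit without subtraction, so this count has no such share beside it. The log2 fold changes were -2.38 for Nfkbia, -2.16 for Tnfaip3, -0.96 for Nfkbiz, -1.60 for Bcl3, -1.80 for Birc3 and -5.84 for Icam1. Relb was the uncalled gene, at -0.65 (adjusted p = 0.0657). For Icam1, 49.0 to 100% of the reads left under TGF-β were attributed to epithelial cells, so its fitted value after subtraction depends on libraries at or near 0. Of the 3 uncalled genes, Nfkb2 ranged from 192 to 261 CPM with TGF-β against 217 to 301 CPM with vehicle, and Tnfaip2 had a log2 fold change of -0.38 (SE 0.17, adjusted p = 0.127). Nfkbiz lost its call without mouse 3 (adjusted p = 0.108) and without mouse 4 (adjusted p = 0.0548), and Relb without mouse 2 (adjusted p = 0.0766) and without mouse 4 (adjusted p = 0.249). Without the replicate block their adjusted p was 0.0896 and 0.136. With the title's R as a covariate all 7 genes were still called.

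**Figure D4:**
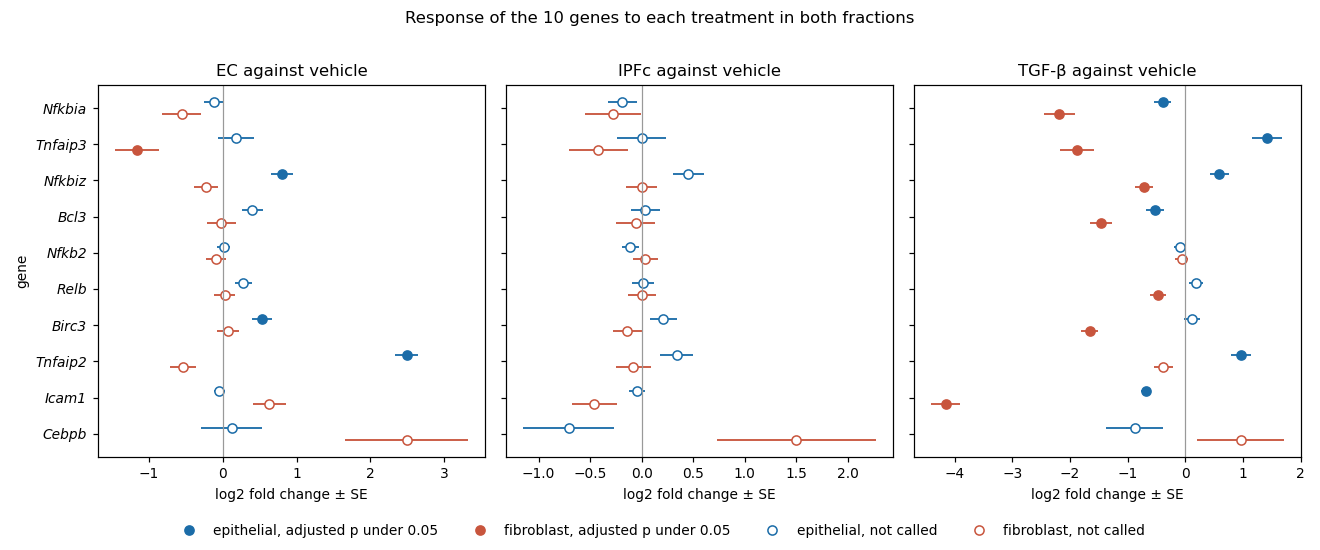
Log2 fold changes against vehicle with their standard errors are plotted for the 10 genes in 3 panels, 1 per treatment, with epithelial libraries in blue and fibroblast libraries in red, and filled points mark an adjusted p under 0.05. With TGF-β 7 fibroblast points are filled and all lie below 0, from -4.16 for Icam1 to -0.47 for Relb, while epithelial points fall on both sides.

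In the epithelial fraction, TGF-β raised 3 and lowered 3 of the 10 genes, where 21.0% of genes were higher and 20.1% lower. Tnfaip3 stood at 101, 191 and 295 CPM in mice 2 to 4, against 47.1, 73.4 and 113 CPM with vehicle in the same mice. It was higher in 3 of 3 mice by 1.42 on the log2 scale (SE 0.26, adjusted p = 1.3e-04), and after subtraction of fibroblast RNA by 2.03 (adjusted p = 7.0e-04). Nfkbiz was higher by 0.59 (SE 0.17, adjusted p = 0.00684) and Tnfaip2 by 0.97 (SE 0.17, adjusted p = 1.1e-04). Both genes were at the higher level in fibroblasts, whose RNA was estimated at 25.9 to 30.6% of these libraries. For Tnfaip2 the subtraction removed 100% of the reads in every epithelial TGF-β library. Values below 0 were set to 0, so 100% is a ceiling, and the amount to subtract may have exceeded the reads present. It does not show that all these reads came from fibroblasts. The fitted log2 fold change after subtraction was -10.9, against libraries without a read left and therefore no measure of size. For Nfkbiz it was 0.39 (adjusted p = 0.335), and without mouse 2 the adjusted p of Nfkbiz was 0.0528.

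Icam1, Bcl3 and Nfkbia were lower with TGF-β in epithelial cells. Icam1 was at 320, 312 and 351 CPM in mice 2 to 4 and below every vehicle library (491 to 597 CPM), with a log2 fold change of -0.69 (SE 0.085, adjusted p = 1.3e-06), and of -0.27 after subtraction (adjusted p = 0.0367). Bcl3 was at 22.1, 19.5 and 18.4 CPM against 25.8 to 35.8 CPM (log2 fold change -0.53, SE 0.16, adjusted p = 0.0130), and Nfkbia at 117, 132 and 141 CPM against 85.9 to 213 CPM (log2 fold change -0.39, SE 0.15, adjusted p = 0.0432). Both lost their calls after subtraction (-0.35, adjusted p = 0.223, and -0.065, adjusted p = 0.826), without mouse 3 (adjusted p = 0.0744 and 0.276) and with the title's R as a covariate (adjusted p = 0.0841 and 0.107). Nfkbia was also lost without mouse 2 (adjusted p = 0.0895) and without the replicate block (adjusted p = 0.466). After subtraction 2 other genes were called in this comparison, Nfkb2 at -0.49 (adjusted p = 0.00216) and Birc3 at 0.47 (adjusted p = 0.0457).

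The TGF-β response was lower in fibroblasts than in epithelial cells for 8 of the 10 genes and higher for none. Among all genes 20.2% had a lower and 7.36% a higher response in fibroblasts, with a median difference of -0.21, and the median over the 10 genes was -1.36. The differences were -3.49 for Icam1 (SE 0.26, adjusted p = 3.3e-10), -3.33 for Tnfaip3 (SE 0.46, adjusted p = 3.6e-06), -1.83 for Nfkbia (SE 0.34, adjusted p = 1.7e-04) and -1.80 for Birc3 (SE 0.21, adjusted p = 2.5e-07). Smaller differences were found for Tnfaip2 (-1.38), Nfkbiz (-1.34), Bcl3 (-0.96) and Relb (-0.68). The difference for Bcl3 was lost without mouse 2 (adjusted p = 0.0549), without mouse 4 (adjusted p = 0.117) and without the replicate block (adjusted p = 0.106), and that for Relb without mouse 4 (adjusted p = 0.0873). Cebpb was uncalled at 1.80 (adjusted p = 0.219), and was called higher in fibroblasts without mouse 4 (3.60, adjusted p = 0.0332) and without a filter (1.81). Tnfaip3 and Nfkbiz had called responses of opposite direction in the 2 fractions. After subtraction the difference for Tnfaip2 had the opposite sign (10.3), again with no epithelial read left, and the other 7 genes remained called in the same direction.

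Between IPFc and TGF-β, which IPFc contains among its 9 factors, the fibroblast levels of the same 7 genes were higher with IPFc, where 12.1% of genes were higher and 5.33% lower. Icam1 was higher by 3.70 (SE 0.23, adjusted p = 5.4e-09), Nfkbia by 1.91, Birc3 by 1.52, Tnfaip3 by 1.47, Bcl3 by 1.40, Nfkbiz by 0.72 and Relb by 0.47, each in 4 of 4 mice. This comparison shares its TGF-β libraries with the one against vehicle. In epithelial cells, where 18.6% of genes were higher and 18.7% lower with IPFc, Icam1 (0.64, SE 0.085, adjusted p = 4.3e-06) and Bcl3 (0.56, SE 0.17, adjusted p = 0.0106) were higher. Tnfaip3 (-1.42, SE 0.26, adjusted p = 1.7e-04) and Tnfaip2 (-0.63, SE 0.17, adjusted p = 0.00600) were lower, and after subtraction the value of Tnfaip2 was 10.25, with no read left in the epithelial TGF-β libraries. The epithelial calls were lost for Tnfaip2 without mouse 3 (adjusted p = 0.111) and without the replicate block (adjusted p = 0.163), and for Bcl3 without mouse 2 (adjusted p = 0.0562) and after subtraction (adjusted p = 0.163). In fibroblasts Relb was lost without mouse 2, 3 or 4 (adjusted p = 0.0676, 0.0760 and 0.0548) and without the replicate block (adjusted p = 0.146), and Icam1 after subtraction (4.47, adjusted p = 0.0617).

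Cebpb, which acts with NF-κB at acute phase genes, was called in none of the 14 comparisons as reported, and its levels were split by the R in the library titles. In the epithelial fraction the 9 R libraries ranged from 42.4 to 68.1 CPM (median 55.1) and the 6 others from 3.28 to 21.9 CPM (median 12.7), with no overlap. In the fibroblast fraction the 7 R libraries ranged from 176 to 275 CPM (median 224) and the 8 others from 8.12 to 177 CPM (median 28.9). Among fibroblast libraries without the R, those with EC were at 110 and 177 CPM (mice 1 and 2), those with IPFc at 42.8 and 34.6 CPM, those with TGF-β at 23.2 and 15.2 CPM, and those with vehicle at 8.12 and 9.60 CPM (mice 1 and 3). In mouse 4, whose fibroblast libraries all carry the R, EC was at 224 CPM and vehicle at 275 CPM. The EC difference in fibroblasts, 2.49 on the log2 scale, was 1.70 with the R as a covariate (adjusted p = 0.278) and 2.11 without mouse 3 (adjusted p = 0.218). It was 4.55 without mouse 4 (adjusted p = 0.0180) and 0.82 without the replicate block (adjusted p = 0.751), and it was also called without a filter (2.52) and with the 2 groups alone (2.64). With TGF-β in fibroblasts Cebpb was uncalled at 0.96 (adjusted p = 0.453), and was called higher without mouse 4 (2.66, adjusted p = 0.0253), without a filter (0.98) and with the 2 groups alone (1.74). What the R stands for is not given, and its part in these levels was not tested beyond these values.

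**Figure D5:**
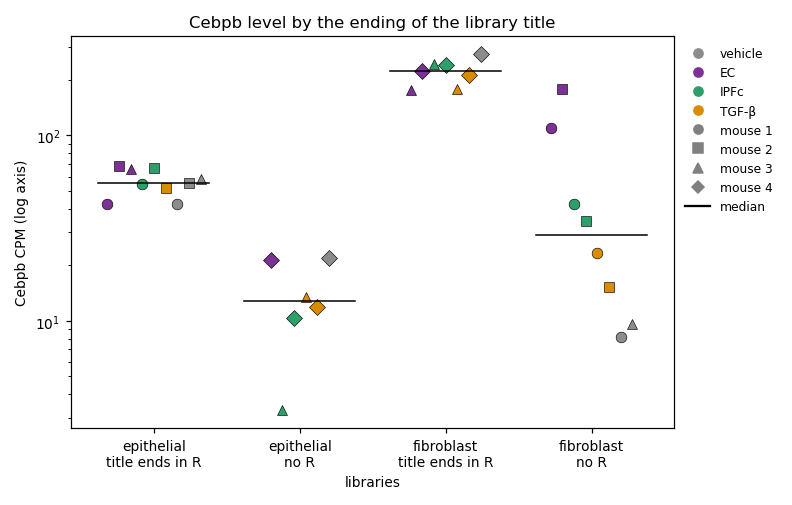
Cebpb CPM on a log axis for each library is plotted by fraction and by whether the library title ends in R, with treatment by colour, mouse by marker shape and the median as a line. Epithelial R libraries (42.4 to 68.1 CPM) lie above all epithelial libraries without R (3.28 to 21.9 CPM).

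Across the 8 groups, the order of the mean levels is described for the genes examined here. Separated neighbours were not counted over all genes, so whether their number is high or low was not tested. For each gene the groups were ranked by mean CPM, and of 70 neighbouring pairs 8 did not overlap. These were fibroblast TGF-β below its next higher group for Icam1 (13.2-fold), Birc3 (3.01-fold) and Nfkbia (1.98-fold), and epithelial EC above epithelial TGF-β for Tnfaip2 (3.33-fold) and Icam1 (1.58-fold). The remaining 3 were epithelial vehicle above epithelial TGF-β for Bcl3 (1.54-fold), the lowest fibroblast above the highest epithelial group for Nfkb2 (1.49-fold) and fibroblast IPFc above fibroblast TGF-β for Tnfaip2 (1.29-fold). The ranges of all other neighbours overlapped. Of those, Relb in fibroblast IPFc and TGF-β still differed in the fit with the mouse as a block (adjusted p = 0.0168, edgeR). So did Tnfaip2 in epithelial TGF-β and IPFc (adjusted p = 0.00600, edgeR). Both calls were lost under some alternatives given above, and the Tnfaip2 difference changed sign after subtraction.

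As a description over the 15 libraries of a fraction, with log2 CPM centred on each mouse, the Pearson r of a gene with the mean of the other 9 was 0.96 for Bcl3, 0.93 for Nfkbia and Relb, and 0.57 for Tnfaip2 in fibroblasts, with Cebpb lowest at 0.21. In epithelial libraries it ran from -0.081 for Tnfaip3 to 0.70 for Tnfaip2. These points share mice, libraries and the treatment groups themselves. Of 10749 genes compared in fibroblasts, those most alike to the mean of the 10 were Noct (r = 0.95), Pik3r5 (0.95), the chemokines Cxcl1 (0.93) and Ccl2 (0.93), and Eno2 (0.93). Of 10562 genes in epithelial libraries they were Susd6 (r = 0.92), Sema4b (0.90), Muc1 (0.87), Cnnm2 (0.86) and Hk2 (0.86).

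Other genes of the pathway were taken from 6 lists by role, and those called with an absolute log2 fold change over 0.5 under EC or IPFc are named. In epithelial cells EC raised 8 of 33 other direct targets tested and lowered none, with a median of 0.28, where 1.96% of all genes were higher and 2.44% lower with a median of 0.0031. These included Saa3 (4.89, SE 0.38), Lcn2 (4.47, SE 0.16) and C3 (0.96, SE 0.11), which encode acute phase and innate defence proteins, as well as Mmp13 (3.28), Tnf (1.70), Csf2 (1.36) and Sod2 (0.55), with adjusted p of 0.0419 or less. Lcn2 rose from 10.4 ± 1.58 to 232 ± 44.4 CPM (SD, n = 4). Of 18 other negative regulators, 4 were higher and 1 was lower, among them Zc3h12a, which encodes the RNase Regnase-1 (2.06, SE 0.17, adjusted p = 4.7e-08), and the A20-binding protein Tnip3 (1.19, SE 0.10, adjusted p = 8.7e-08), while Zfp36, an mRNA decay factor, was lower (-0.51, SE 0.11, adjusted p = 0.00594). Of 24 adaptors and kinases, 2 were higher and 1 lower, with Ikbke, an IKK-related kinase, at 1.02 (SE 0.12, adjusted p = 1.9e-05). Cebpd (1.64, SE 0.18, adjusted p = 3.7e-06) was the called gene among 5 members of the C/EBP family. Of 14 receptors of the cocktail factors 1 was higher, and of 6 other subunits and IκB proteins 1 was higher. After subtraction of fibroblast RNA, 6 of the 12 genes that qualified by size were still called, and all 12 kept their sign. The 6 were Lcn2 (4.41), Saa3 (3.86), Zc3h12a (2.18), Tnip3 (1.22), Ikbke (1.01) and Zfp36 (-0.61). Over all genes, 327 were called after subtraction, against 794 before it.

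In EC-exposed fibroblasts, 5 of 33 other direct targets were higher and 3 lower, where 4.28% of all genes were higher and 2.84% lower. Saa3 (5.84, SE 0.47), Lcn2 (4.6, SE 0.26), Mmp13 (1.74), Sod2 (1.11) and C3 (1.06) were higher. The transcription factor Irf1 (-1.83, SE 0.26, adjusted p = 5.5e-04), Csf1 (-1.0) and the adhesion molecule Vcam1 (-0.62) were lower. Of 18 other negative regulators 2 were higher, Tnip3 (2.39, SE 0.25, adjusted p = 4.9e-05) and Zc3h12a (0.84, SE 0.21, adjusted p = 0.0248). Of 24 adaptors and kinases Ikbke (0.57) was higher, and Traf5 (-0.95), Traf1 (-0.81) and Map3k14 (-0.67), the kinase of the non-canonical arm, were lower. Of 13 receptors the IL-33 receptor Il1rl1 (-0.99) was lower and Tnfrsf1b (0.57) higher, and in the C/EBP family Cebpd (0.92) and Cebpa (0.82) were higher. These libraries held 38.9 to 60.3% epithelial RNA against 15.2 to 27.4% with vehicle. Before subtraction 1284 genes in all were called in this comparison, and after it 41 were. Of the 18 genes named here, 4 were among them, Saa3 (6.35), Lcn2 (4.76), Mmp13 (2.13) and C3 (1.49), and 17 kept their sign. The exception was Tnip3, of whose reads 84.4 to 100% were attributed to epithelial cells (-1.53, adjusted p = 0.892).

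With IPFc, 3 of 33 other direct targets were higher and 1 was lower in epithelial cells, where 2.57% of all genes were higher and 1.53% lower. In fibroblasts 3 were higher and 0 lower, where the shares were 0.305% and 0.144%. The higher genes were C3 (0.84, adjusted p = 3.2e-05), Il6 (2.30, adjusted p = 0.0123) and Lcn2 (0.73, adjusted p = 0.00716) in epithelial cells, and C3 (1.07, adjusted p = 0.00463), Mmp13 (1.69, adjusted p = 0.0171) and Lcn2 (1.12, adjusted p = 0.0460) in fibroblasts. After subtraction 0 of the 4 epithelial values, Il1rl1 included, and 0 of the 3 fibroblast values were called by edgeR. Over all genes, subtraction left 167 called in epithelial cells, against 739 before it, and 1 in fibroblasts, against 81. The lost calls are therefore no result about these genes. An unadjusted p under 0.05 remained for 3 epithelial and 3 fibroblast values. The log2 fold changes after subtraction were 0.31 for C3, 2.64 for Il6 and 0.65 for Lcn2 in epithelial cells. In fibroblasts they were 1.09 for C3, 1.70 for Mmp13 and 1.15 for Lcn2. Il1rl1 was higher in epithelial cells (1.78, SE 0.21, adjusted p = 2.4e-05, and 5.10 with an adjusted p of 0.183 after subtraction), 1 of 3 receptors that were higher and 1 that was lower among 14. Of the 18 negative regulators 0 were called by edgeR with IPFc in either fraction, with 4 (epithelial) and 1 (fibroblast) at an unadjusted p under 0.05. Of the 24 adaptors and kinases 0 were called, with 1 and 3 at an unadjusted p under 0.05.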

How the data were processed

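RNA of 30 libraries (15 epithelial and 15 fibroblast, 4 mice) was sequenced after a strand-specific library preparation. The authors deposited raw counts per gene, 1 table per library. Per the labels, reads were trimmed with Trimmomatic 0.30 and the study's own tests used DESeq2 1.34.0 with the mouse as a pair. The aligner and the counting program are not given in the sources used here. The genome build is GRCm38 in the study's methods and GRCm39 in the labels, and the count tables carry no coordinates.

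Groups, mice and treatments were taken from the labels. Genes whose raw counts averaged 1 or more were tested with edgeR 4.0.16 (R 4.3.3, quasi-likelihood test, TMM normalization), in 1 fit per fraction over all 4 treatments with the mouse as a block, which left 8 residual degrees of freedom. Fractions were compared in fits over all 30 libraries. P-values were adjusted over all genes tested (Benjamini-Hochberg), and a gene was called at an adjusted p under 0.05. Standard errors were derived from the log2 fold change and the F statistic. All 10 genes passed the filter in every fit. Same-numbered libraries come from the same mouse, and the mean correlation of their deviations from the group means was 0.35 in epithelial and 0.36 in fibroblast libraries, against -0.11 and -0.12 between mice. Libraries of a group differed by more than sampling noise, with chi-square values that were 5.48 to 76.9 times their degrees of freedom, so none was counted as a duplicate.

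For the subtraction, the share of each library from the other fraction (median ratio over its markers at 50 CPM or more in the partner) was multiplied by the partner's profile and removed from the counts, with values below 0 set to 0. Where the partner library was not analysed here, the mean of its group was used. The partner's profile itself holds RNA of both fractions. The edgeR fits were tested on simulated counts, and the subtraction was not. DESeq2 1.42.0, other size factors, filters and fits, and each mouse left out were run as alternatives. The 10 genes and all lists were chosen with earlier results of these data known. The 10 genes are named in every comparison, pathway genes where called with an absolute log2 fold change over 0.5 under EC or IPFc, and the 5 genes per fraction of highest correlation among those with a mean of at least 5 CPM.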

Additional observations from a re-analysis of the deposited data

Results flagged for a closer look

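In 60 groups of 4 libraries, a single library stood apart from the other 3 by Dixon's test at its 95% level for 2 genes, and chance marks about 1 in 20 groups. Relb was lowest in fibroblast EC of mouse 1, at 55.2 CPM against 78.1 to 79.9 CPM in the other 3 libraries, and that library was the shallowest of all. Birc3 was lowest in epithelial EC of mouse 4, at 32.9 CPM against 41.5 to 42.2 CPM.

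Responses that differed between the fractions by the interaction test are listed as the fibroblast minus the epithelial log2 fold change. With EC these were -3.02 for Tnfaip2 and -1.02 for Nfkbiz. With TGF-β they were -3.49 for Icam1, -3.33 for Tnfaip3, -1.83 for Nfkbia, -1.80 for Birc3, -1.38 for Tnfaip2, -1.34 for Nfkbiz, -0.96 for Bcl3 and -0.68 for Relb. TGF-β was accompanied by opposite shifts in the estimated share of the other fraction. The estimate was 25.9 to 30.6% in epithelial and 0.875 to 3.46% in fibroblast libraries.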

How the results depend on the processing

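The number of the 10 genes called stayed within 1.5 times of the reported number in 148 of 178 recomputed counts, from 13 alternatives over 14 comparisons. No alternative moved the TGF-β counts against vehicle beyond that in either fraction, but the genes counted changed. In epithelial cells after subtraction, Nfkbia, Bcl3 and Nfkbiz lost their calls and Tnfaip2 changed sign, while Nfkb2 and Birc3 were called. Tnfaip3 and Icam1 kept call and direction. Of 47 called values, 29 kept their call and direction under every alternative, among them Tnfaip2 in epithelial EC (2.31 to 3.77) and Icam1 in fibroblast TGF-β (-5.84 to -3.86). Without the replicate block, 1 gene was called for epithelial EC, 0 for fibroblast EC, 0 for fibroblast EC against IPFc and 1 for the difference in EC response. Subtraction of the other fraction gave 1, 0, 0 and 1 for the same comparisons. Over all genes, calls fell with it from 794 to 327 for epithelial EC and from 1284 to 41 for fibroblast EC. For fibroblast EC, DESeq2 called 4, no filter 5, a fit of the 2 groups alone 5 and the title's R as a covariate, chosen after seeing the data, 0. A setting can change the adjusted p at almost the same fold change. Cebpb there had 2.49 (adjusted p = 0.0820, edgeR) as reported and 2.52 (adjusted p = 4.2e-37, edgeR) without a filter. The counts in this paragraph are not set against the genes called over all genes in each setting. Without a filter, 3 were called for epithelial IPFc, 2 for epithelial EC against IPFc, 1 for fibroblast IPFc, 4 for fibroblast EC against IPFc, 5 for the difference in EC response and 1 for that in IPFc response. With the 2 groups alone, 1 was called for epithelial IPFc and 1 for fibroblast IPFc. Leaving out 1 mouse gave 1 to 3 for epithelial EC, 0 to 5 for fibroblast EC (5 without mouse 1), 1 to 4 for fibroblast EC against IPFc (4 without mouse 1), 1 to 3 for the difference in EC response, 0 to 1 for epithelial IPFc and 1 to 3 for epithelial EC against IPFc. After subtraction the sign turned for Tnfaip2 in epithelial IPFc (-0.65), epithelial TGF-β (-10.9), epithelial IPFc against TGF-β (10.25) and the difference in TGF-β response (10.3), and for Icam1 in fibroblast EC (-1.31) and the difference in EC response (-1.29). Apart from the Tnfaip2 values with no read left, the cause was not tested. The 74 values with an unadjusted p of 0.05 or more changed sign in 91 of 944 recomputations, 1 of them called. Depth limits fibroblast EC of mouse 1 most, at 5113828 counts.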

Other observations

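Other genes of the pathway also differed in fibroblasts exposed to TGF-β. Of 18 other negative regulators 7 were lower and 0 higher, of 33 other direct targets 12 were lower and 3 higher, of 6 other subunits and IκB proteins 2 were lower, of 5 members of the C/EBP family 2 were lower, of 24 adaptors and kinases 3 were higher and 3 lower, and of 13 receptors 1 was higher and 3 lower, where 12.8% of all genes were lower and 6.39% higher. In epithelial libraries with TGF-β, 13 of the 33 direct targets were higher and 6 lower, where 21.0% of all genes were higher and 20.1% lower. Of the 18 negative regulators 4 were higher and 3 lower there, of 24 adaptors and kinases 5 were higher and 5 lower, and of 14 receptors 5 were higher and 3 lower.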
